A study of Mus musculus with 15 samples.

Results

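The cornified envelope genes encode the proteins of the tough shell that replaces the plasma membrane of a dying surface keratinocyte, and the enzymes that weld that shell together. The set was defined by gene name and was chosen with earlier results of these data known. It took the *Sprr1* to *Sprr4* genes, the *Lce1*, *Lce3* and *Lce6* genes, and *Lor*, *Ivl*, *Flg*, *Flg2*, *Hrnr*, *Rptn*, *Tgm1*, *Tgm3*, *Casp14*, *Cnfn*, *Crct1*, *Cdsn* and *Dsc1*, kept where the annotation calls them protein-coding. It holds 49 of the 54232 genes in the deposited table, of which 21906 are protein-coding. There are 15 small proline-rich protein (SPRR) genes, 21 late cornified envelope (LCE) genes, 2 scaffold genes, 4 genes of the S100-fused family, 3 enzymes, 2 small cornified proteins and 2 corneodesmosome proteins.

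Bulk RNA sequencing measured whole secondary palates, the shelves that part the mouth from the nasal cavity, in wild-type (WT) mice. The 5 groups were 4 embryonic (E) stages, taken daily from E13.5 to E16.5, and newborn pups (P0), an interval that covers growth, elevation and fusion of the shelves. Each stage had 3 libraries, and every library pooled palates from 3 embryos, so its replicates are pools and p-values measure the spread between pools. No allele or agent other than WT is named in the labels used here.

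A cornified envelope forms when transglutaminases cross-link precursor proteins beneath the membrane of a terminally differentiating keratinocyte. Most precursors are encoded side by side in the epidermal differentiation complex: small proline-rich proteins serve as cross-bridges, loricrin and involucrin as scaffold, the S100-fused proteins bundle keratin or are cross-linked with it, and late cornified envelope proteins are added last. Oral mucosa makes this shell too, with more small proline-rich protein and less of the filaggrin and loricrin programme where it stays soft, and the hard palate is a keratinizing surface.

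On GRCm38, 43 of the 49 members lie on chromosome 3 within 1319 kb, from *Lor* at 92080271 to the end of *Rptn* at 93399442. The SPRR genes come first, then *Ivl*, the LCE genes with *Crct1* among them, and the S100-fused genes. The other members stand alone: *Tgm3* on chromosome 2, *Cnfn* on 7, *Casp14* on 10, *Tgm1* on 14, *Cdsn* on 17 and *Dsc1* on 18.

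Promoters are shown for 6 members whose levels followed different courses: *Sprr1a* and *Sprr3* of the SPRR genes, *Ivl* as a marker with few counts outside 1 library, *Rptn*, and *Lce3a* and *Lce3b* as genes seen late. Each is the 250 bases before the RefSeq start on GRCm38.p6, 5′ to 3′ on the gene's strand. Capitals mark a match, on either strand, to the letters of 1 of 4 motifs. The AP-1 motif was searched as TGANTCA. The KLF motif was searched as GGGNGTG. The GRHL motif was searched as AACCGGTT. The TATA box was searched as TATAAA.

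*Sprr1a* (chr3:92485882-92486131, minus strand): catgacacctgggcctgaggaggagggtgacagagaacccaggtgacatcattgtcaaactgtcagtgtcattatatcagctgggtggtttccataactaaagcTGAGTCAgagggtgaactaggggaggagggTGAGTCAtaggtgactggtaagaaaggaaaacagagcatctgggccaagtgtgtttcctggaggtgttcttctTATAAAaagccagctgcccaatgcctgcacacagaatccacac

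*Sprr3* (chr3:92458721-92458970, minus strand): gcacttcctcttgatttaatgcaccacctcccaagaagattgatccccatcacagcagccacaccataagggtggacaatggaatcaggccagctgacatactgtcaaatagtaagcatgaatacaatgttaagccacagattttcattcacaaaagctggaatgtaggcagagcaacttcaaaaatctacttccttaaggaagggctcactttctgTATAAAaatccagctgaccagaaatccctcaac

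*Ivl* (chr3:92573736-92573985, minus strand): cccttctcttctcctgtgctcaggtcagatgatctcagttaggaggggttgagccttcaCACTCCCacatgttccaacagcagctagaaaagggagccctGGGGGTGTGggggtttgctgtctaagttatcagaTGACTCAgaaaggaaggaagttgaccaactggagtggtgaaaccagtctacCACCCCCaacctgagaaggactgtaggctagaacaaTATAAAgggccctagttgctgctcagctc

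*Rptn* (chr3:93393449-93393698, plus strand): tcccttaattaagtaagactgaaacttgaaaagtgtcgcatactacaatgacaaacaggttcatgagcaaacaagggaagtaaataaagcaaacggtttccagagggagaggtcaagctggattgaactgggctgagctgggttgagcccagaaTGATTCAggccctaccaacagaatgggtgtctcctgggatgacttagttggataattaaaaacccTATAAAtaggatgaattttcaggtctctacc

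*Lce3a* (chr3:92926231-92926480, minus strand): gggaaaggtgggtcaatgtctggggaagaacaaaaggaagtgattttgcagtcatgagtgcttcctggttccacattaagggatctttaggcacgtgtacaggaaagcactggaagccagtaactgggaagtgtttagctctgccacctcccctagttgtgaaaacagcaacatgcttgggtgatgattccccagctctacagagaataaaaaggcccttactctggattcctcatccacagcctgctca

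*Lce3b* (chr3:92932729-92932978, plus strand): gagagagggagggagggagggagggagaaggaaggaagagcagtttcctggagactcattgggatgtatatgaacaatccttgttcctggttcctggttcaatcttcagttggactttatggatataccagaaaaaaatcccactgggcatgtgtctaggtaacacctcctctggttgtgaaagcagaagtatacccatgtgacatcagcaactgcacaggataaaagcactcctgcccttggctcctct

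In *Sprr1a* the letters TGANTCA began 146 and 116 bases before the start and TATAAA 43 bases before it. The *Ivl* window held the AP-1 letters at 116 bases and TATAAA at 29. Its KLF letters were at 191, 150, 148 and 65 bases, the middle pair overlapping each other. *Rptn* had the AP-1 letters at 96 bases and TATAAA at 31, *Sprr3* had only TATAAA, at 33 bases, and neither *Lce3a* nor *Lce3b* had a match.

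Of the 49 members, 45 had a RefSeq window of 300 bases (250 before to 50 after the start). Searched on both strands, the AP-1 letters were present in 14 of the 45 (31.1%), against 7.93% of the windows of 27025 genes. By role they were in 9 of 14 SPRR windows, 2 of 2 scaffold windows and 3 of 4 S100-fused windows, and in 0 of 20 LCE windows. TATAAA stood in 20 of 45 windows (44.4%, against 14.2% of all genes), the KLF letters in 7 (15.6%, against 29%) and the GRHL letters in 0 (against 0.152%). Several SPRR windows resemble one another, so their matches are not independent. In *Sprr2b*, *Sprr2d*, *Sprr2e*, *Sprr2f*, *Sprr2h*, *Sprr2i* and *Sprr2k* TATAAA began 29 bases before the start. In the same genes the AP-1 letters began 193 to 198 bases before it, and in *Sprr2k* also at 182. *Sprr2a1* and *Sprr2a2* had the same 250 bases before the start, and both held the KLF letters 27 bases after it.

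Counts assigned to genes numbered 21.5 M to 69.0 M per library (M for mega), with E16.5 and P0 shallower than the earlier stages. Levels are CPM, counts scaled to an equal library total of 1 M, with totals adjusted by TMM, edgeR's trimmed mean of M values. A level of 3 counts, the detection floor, corresponded to 0.0421 to 0.131 CPM and covers counting error only. Genes on the Y chromosome had 7 to 12 counts in all 3 E16.5 libraries and at most 28 in E13.5 replicate 1, E15.5 replicate 1 and P0 replicate 2, against 2976 or more in the other libraries. Sex composition thus moved with stage at E16.5, and its part in the results was not tested. Library sums of 11 basal epithelial genes ran from 359 to 746 CPM at E13.5 and from 1290 to 3680 CPM at P0.

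In stage order from E13.5 to P0, 5, 8, 10, 10 and 16 members had more than 3 counts in every library of the stage. With more than 3 counts in at least 1 library the numbers were 10, 11, 20, 25 and 37. The early libraries were deeper: with every library thinned to the smallest total, the counts for every library of the stage were 2, 4, 6, 10 and 15. The 5 members above the floor throughout E13.5 were *Lor*, *Sprr1a* and the 3 enzymes. LCE genes contributed 0 members in every library of a stage until P0, where 6 of 21 were above the floor in all 3 libraries and 18 in at least 1. At E16.5 the count in every library was 21 without replicate 1, in which *Lce3b*, *Lce3c*, *Lce3d*, *Lce3e* and *Lce3f* had 0 counts. *Sprr2a2* and *Sprr2e* had 0 counts in all 15 libraries; *Sprr2a2* overlaps *Sprr2a1* on the same strand and shares 96.5% of its 50-base stretches with other transcripts, so reads from it could have gone uncounted.

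**Figure D1:**
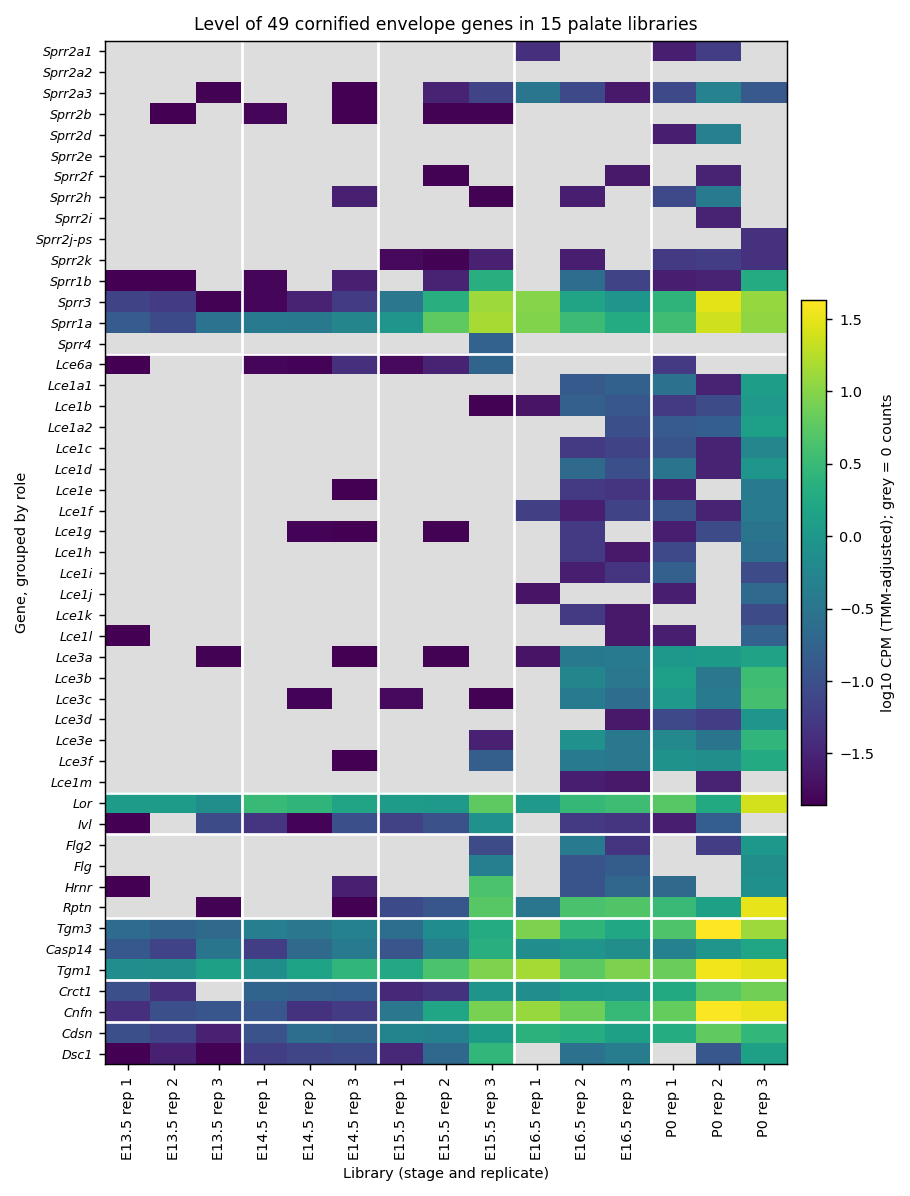
Colour gives log10 CPM of each of the 49 members (rows, grouped by role) in each of the 15 libraries (columns, 3 per stage), with grey for 0 counts. The LCE rows are mostly grey up to E15.5 and in E16.5 replicate 1, and *Sprr1a*, *Sprr3*, *Cnfn*, *Tgm1* and *Tgm3* have their highest mean at P0.

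The filter on low counts kept 20 members: 3 SPRR genes, 7 LCE genes, *Lor*, *Hrnr*, *Rptn* and all 7 enzymes, small cornified and corneodesmosome genes. The other 29 were not tested. Several of those kept, the 7 LCE genes among them, passed only through the stages where they were high. With edgeR's quasi-likelihood F test and Benjamini-Hochberg adjustment, 17 of the 20 tested members changed across the 5 stages, beside 59.1% of all genes tested. The 3 tested members not called were *Sprr1b*, *Casp14* and *Dsc1*.

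As a whole the members went from *Lor* and *Tgm1* to a broader mix. *Lor* and *Tgm1* made up 35.9% and 32.5% of the members' mean summed CPM at E13.5 and 7.28% and 16.8% at P0. By library the share of *Lor* was 42.3%, 45% and 23% at E13.5 and 12.2%, 0.955% and 12.4% at P0, so its P0 share was lowered by replicate 2. *Cnfn* went from 3.04% to 18.6%. *Sprr3* went from 1.67% to 10.4%, with 5.92%, 15.8% and 6.08% in the P0 libraries. Per kilobase of transcript, the scale that allows genes to be compared, mean levels at P0 were 37.6 CPM per kb for *Cnfn*, 16 for *Sprr1a*, 12.4 for *Sprr3*, 7.70 for *Tgm1*, 6.25 for *Crct1*, 5.94 for *Lor* and 4.89 for *Tgm3*. *Lce3c*, *Lce3b* and *Rptn* were at 3.20, 3.06 and 2.95 CPM per kb, and *Ivl* at 0.0312. At E13.5 the order was led by *Lor* at 0.576, *Tgm1* at 0.294 and *Sprr1a* at 0.217 CPM per kb.

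Small proline-rich proteins are the flexible cross-bridges of the envelope, and *Sprr1a* and *Sprr3* carried nearly all of the family's counted reads. *Sprr1a* read 0.143, 0.0845 and 0.297 CPM in the 3 E13.5 libraries and 0.374, 0.363 and 0.548 at E14.5. E15.5 libraries were at 0.961, 5.93 and 14.8 CPM, E16.5 libraries at 9.28, 3.4 and 1.96, and P0 libraries at 3.63, 23.7 and 11.3. Every E15.5 library was above every E14.5 library, but the E15.5 libraries spread widely, and E15.5, E16.5 and P0 overlapped. Between E14.5 and E15.5 *Sprr1a* rose by a log2 fold change of 4.07 ± 0.98 (SE, adjusted p = 0.0109, 3 pools against 3), a ratio of mean CPM of 16.9, a call that ended without E14.5 replicate 1. From E15.5 to P0 its log2 fold change was 0.83 ± 0.85 (adjusted p = 0.516).

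*Sprr3*, abundant in oral and oesophageal lining, was at 1 to 5 counts in each library of E13.5 and E14.5. At E15.5 it was at 0.337, 2.22 and 13.4 CPM, then 10.1, 1.52 and 0.954 CPM at E16.5, and in the P0 libraries 2.61, 30.8 and 12. The step from E14.5 to E15.5 again separated all libraries, and E15.5 replicate 1 was the lowest of the later 9. The log2 fold change of that step was 7.18 ± 1.63 (adjusted p = 0.00857), and from E13.5 to P0 *Sprr3* rose by 8.24 ± 1.64 (adjusted p = 0.00109) and *Sprr1a* by 6.19 ± 1.09 (adjusted p = 0.000473).

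*Sprr1b*, the close relative of *Sprr1a*, followed another course. It had 147 counts in E15.5 replicate 3, 45 in P0 replicate 3, 9 in E16.5 replicate 2 and at most 3 in the other 12 libraries. Its rise from E13.5 to P0 was called at an edgeR adjusted p of 0.0499, with a ratio of pooled counts of 53.3 (exact 95% counting interval 13.9 to 453), and that call ended without any 1 of the E13.5 libraries or without P0 replicate 3. The 11 *Sprr2* members, the inducible branch of the family, stayed at or under 16 counts in any library, and *Sprr2a3*, *Sprr2d* and *Sprr2h* had their highest counts, 16, 15 and 13, in P0 replicate 2. *Sprr4* had 12 counts in E15.5 replicate 3 and 0 elsewhere.

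Involucrin and loricrin are the early and late scaffold proteins of the envelope. *Ivl* had at most 7 counts in 14 libraries and 56 counts, 0.810 CPM, in E15.5 replicate 3. So of the pair of genes taken as markers of cornified epithelium, *Sprr1a* rose between E14.5 and E15.5 with no further call after it, and *Ivl* did not pass the filter. Without the filter its log2 fold change from E13.5 to P0 was 0.86 ± 1.40 (edgeR, adjusted p = 0.701). *Lor* was present from the start, at 1.19, 1.14 and 0.743 CPM at E13.5, 3.15, 2.65 and 1.52 at E14.5, and 1.16, 1.04 and 5.76 at E15.5. E16.5 libraries were at 1.06, 2.9 and 3.55 CPM, and P0 libraries at 5.38, 1.86 and 24.5. The P0 libraries were all above those of E13.5 but not above those of the stages between. *Lor* rose from E13.5 to P0 by a log2 fold change of 3.36 ± 0.92 (edgeR, adjusted p = 0.00759), a call that ended without P0 replicate 3 (1.83, adjusted p = 0.0536, where the 14 other settings ran from 0.000104 to that value).

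Transglutaminases 1 and 3 form the cross-links, and caspase 14 processes filaggrin. The libraries of *Tgm1* were at 0.717, 0.733 and 1.34 CPM for E13.5, 0.763, 1.47 and 2.75 for E14.5, and 1.77, 4.37 and 9.21 for E15.5. They were at 14.7, 5.59 and 8.88 CPM for E16.5 and 6.91, 36 and 30.1 for P0. Neighbouring stages overlapped, while E13.5 lay below E15.5, E16.5 and P0. *Tgm3* was at 0.183 to 0.229 CPM at E13.5, 0.348 to 0.477 at E14.5 and 0.253, 0.686 and 1.95 at E15.5. It was at 8.78, 2.68 and 1.71 CPM at E16.5 and 4.74, 42.8 and 13.1 at P0, where every library was above all of E15.5. From E13.5 to P0 *Tgm1* rose by 4.71 ± 0.79 (edgeR, adjusted p = 0.000336) and *Tgm3* by 6.56 ± 1.03 (adjusted p = 0.000202). *Casp14* was at 0.170 ± 0.126 CPM (SD, n = 3) at E13.5 and 0.999 ± 0.574 at P0 (adjusted p = 0.0372) and was highest in E15.5 replicate 3, at 2.24 CPM. Its call ended without E13.5 replicate 1 or 2 or without P0 replicate 2 or 3.

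*Cnfn*, cornifelin, is a small cysteine-rich envelope protein. It had 3, 7 and 8 counts in the E13.5 libraries and 8, 3 and 4 in those of E14.5. E15.5 libraries were at 0.337, 1.55 and 8.53 CPM, E16.5 libraries at 12.5, 7.39 and 3.06, and P0 libraries at 6.38, 40.7 and 34. The E15.5 libraries were all above those of E14.5, and the later stages overlapped. The step from E14.5 to E15.5 was 5.5 ± 1.19 (edgeR, adjusted p = 0.00694) and that from E13.5 to P0 8.25 ± 1.29 (adjusted p = 0.000200). *Crct1*, a cysteine-rich protein encoded among the LCE genes, was at 0.0337, 0.0447 and 0.882 CPM in E15.5 libraries, 0.712, 0.996 and 1.03 in those of E16.5, and 1.86, 5.24 and 7.75 in those of P0. All P0 libraries were above all E15.5 and E16.5 libraries, and P0 against E15.5 gave a log2 fold change of 3.92 ± 1.00 (adjusted p = 0.0167).

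The S100-fused proteins have a calcium-binding head and long repeats. *Rptn*, repetin, had 0 or 1 count in each E13.5 and E14.5 library and then 5, 8 and 368 counts at E15.5. In CPM these E15.5 libraries were at 0.0843, 0.119 and 5.32, those of E16.5 at 0.324, 4.34 and 4.77, and those of P0 at 3.22, 1.34 and 32.2. All E15.5 libraries were above all E14.5 libraries, with E15.5 replicate 3 and P0 replicate 3 far above the other libraries of their stages. Its call from E14.5 to E15.5 (8.0 ± 2.36, edgeR, adjusted p = 0.0268) ended without E15.5 replicate 3 or any 1 of the E14.5 libraries. *Rptn* rose from E13.5 to P0 by 10.75 ± 2.42 (edgeR, adjusted p = 0.00238), and the ratio of its pooled counts per pooled library total, 2040, rests on 1 count at E13.5 (exact 95% counting interval 365 to 80600).

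*Hrnr*, hornerin, had 306 counts (4.43 CPM) in E15.5 replicate 3 and 0 in the other E15.5 libraries. It had 0, 4 and 8 counts at E16.5 and 8, 0 and 18 at P0, so every pair of stages overlapped. Its call from E14.5 to E15.5 (6.93 ± 2.34, edgeR, adjusted p = 0.0451) ended without any 1 of the E14.5 libraries, and without E15.5 replicate 3 the log2 fold change was -2.38. *Flg* and *Flg2*, the filaggrins that aggregate keratin, were not tested. *Flg* had 0 counts outside E15.5 replicate 3, E16.5 replicates 2 and 3 and P0 replicate 3, and its highest levels were 0.740 CPM in P0 replicate 3 and 0.448 CPM in E15.5 replicate 3. *Flg2* was highest in P0 replicate 3, at 1.00 CPM.

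Corneodesmosin and desmocollin 1 hold cornified cells together. *Cdsn* had 7, 5 and 2 counts in the E13.5 libraries (0.0297 to 0.1 CPM) and was at 0.109, 0.257 and 0.197 CPM in those of E14.5 and 0.523, 0.477 and 1.11 in those of E15.5. It was at 2.44, 2.02 and 1.32 CPM in E16.5 libraries and 2, 6.07 and 2.83 in P0 libraries. Each stage up to E16.5 lay wholly above the one before, and P0 overlapped E16.5. It rose from E13.5 to P0 by 5.71 ± 0.62 (edgeR, adjusted p = 1.71e-05), the smallest adjusted p of the 20 tested members in that comparison. *Dsc1* was at 2.85 CPM in E15.5 replicate 3 and 1.35 in P0 replicate 3, and at 0 in E16.5 replicate 1 and P0 replicate 1. Its log2 fold change from E13.5 to P0, 4.42 ± 1.90, was not called (edgeR, adjusted p = 0.0633) and passed without P0 replicate 1, with the replicate number as a block and with DESeq2.

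**Figure D2:**
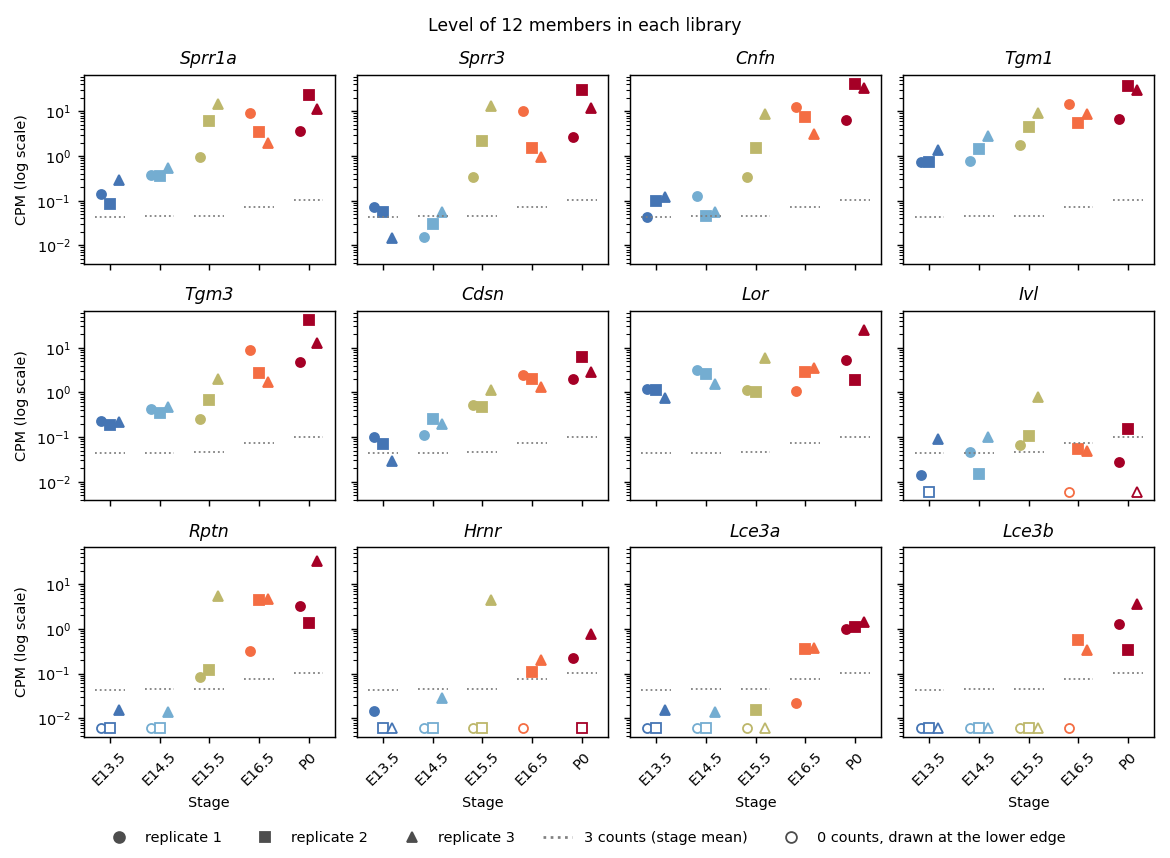
Each panel plots the CPM of 1 member (log axis) in every library by stage, with marker shapes for replicates 1 to 3, dotted lines at 3 counts and open symbols for 0 counts. *Sprr1a*, *Sprr3* and *Cnfn* step up at E15.5, *Lce3a* and *Lce3b* are above the floor only in E16.5 and P0 libraries, and *Ivl* and *Hrnr* are highest in E15.5 replicate 3.

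Late cornified envelope proteins are small glycine- and cysteine-rich proteins added to the inner face of a nearly finished shell. In all 9 libraries up to E15.5 the 21 LCE genes together had 0 to 28 counts per library. At E16.5 they summed to 6, 122 and 102 counts, and at P0 to 228, 112 and 498. In CPM the E16.5 sums were 0.129, 3.38 and 2.5 and the P0 sums 6.32, 3.41 and 21.7. E16.5 replicate 1 was therefore at an LCE level like that of the earlier stages, and P0 replicate 3, the shallowest library, had the highest.

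*Lce3a* had 0 or 1 count in each library up to E15.5 and in E16.5 replicate 1. It then had 13 and 15 counts in the other E16.5 libraries and 36, 36 and 33 at P0, which is 0.360, 0.367, 0.999, 1.10 and 1.44 CPM. All P0 libraries were above all E16.5 libraries, with the smallest relative spread of the LCE genes. From E15.5 to P0 it rose by 7.31 ± 1.05 (edgeR, adjusted p = 0.00158), a ratio of 224 (exact 95% counting interval 39.3 to 8920).

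*Lce3b* had 0 counts in 10 libraries, then 20 and 14 in E16.5 replicates 2 and 3 and 47, 11 and 81 at P0. At 1.72 ± 1.64 CPM (SD, n = 3) at P0 it was at least 37.2-fold higher than at E15.5 and at least 39.8-fold higher than at E13.5, taking 3 counts per library as the floor. Without P0 replicate 3 these bounds were 17.7 and 18.9. *Lce3c* was at 1.08, 0.396 and 3.96 CPM at P0 and at 0 to 1 count per library up to E15.5. It was at least 41.9-fold higher at P0 than at E13.5 (edgeR, adjusted p = 0.000807), or at least 17.1-fold without P0 replicate 3. *Lce3e*, *Lce3f*, *Lce1a1* and *Lce1d* were at least 28.5, 26.8, 12.1 and 9.96-fold higher at P0 than at E13.5, with edgeR adjusted p from 0.00227 to 0.0194. Without P0 replicate 3 those bounds were 10.6, 18.1, 3.56 and 3.88, and the calls against E13.5 held without any 1 library. All 7 tested LCE genes had their highest P0 level in replicate 3. Up to E15.5 they had too few counts to pass the filter, and they were kept through their E16.5 and P0 levels. A call of P0 over a stage up to E15.5 was therefore favoured in advance. These genes resemble each other: *Lce3c*, *Lce3d*, *Lce3e* and *Lce3f* share 35.7% to 49.3% of their 50-base stretches with other transcripts, so their separate values are uncertain, while *Lce3b* shares 12.1%.

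The 14 LCE genes outside the filter had low counts. *Lce1b* and *Lce1a2* reached 25 and 30 counts and *Lce3d* 22, all in P0 replicate 3. *Lce1k*, *Lce1l* and *Lce1j* had at most 2, 4 and 5 counts in any library. *Lce6a* had 13 counts in E15.5 replicate 3, 3 or fewer elsewhere, and 0 at E16.5. *Lce1m*, which lies beside *Crct1*, had at most 1 count in any library.

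**Figure D3:**
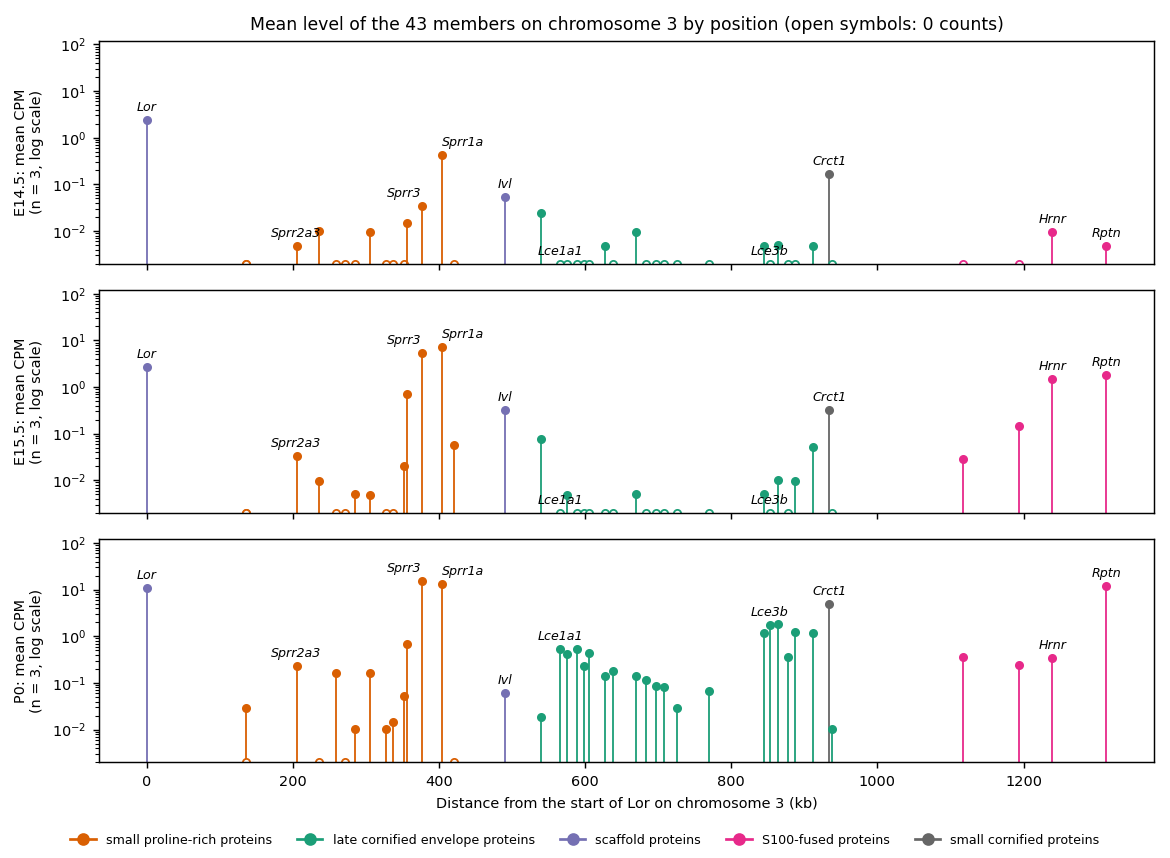
Mean CPM (n = 3, log axis) at E14.5, E15.5 and P0 of the 43 members on chromosome 3, against distance from the start of *Lor* in kb and coloured by role, with open symbols for 0 counts. *Lor*, *Sprr1a* and *Crct1* are the highest at E14.5, *Sprr1a* and *Sprr3* are at 7.24 and 5.32 CPM at E15.5, and the LCE genes between *Ivl* and *Crct1* have their highest means at P0, except *Lce6a*.

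The first interval, E13.5 to E14.5, spans shelf elevation. By edgeR 0 members were called in it, where 2 of 22151 genes (0.00903%) were. At an unadjusted p under 0.05 there was 1, *Cdsn*, and DESeq2 called 0. Without overlap between the stages 6 of the 20 tested members were higher at E14.5, beside 15.5% of all genes tested. Without a filter the calls were 0, beside 0.0132% of all genes.

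From E14.5 to E15.5, across shelf fusion, 6 of the 20 tested members were called higher and 0 lower. Of all genes tested, 12.7% were called higher and 13.4% lower. The 6 members were *Sprr1a*, *Sprr3*, *Cnfn*, *Rptn*, *Hrnr* and *Cdsn*. None was an LCE gene. *Sprr3*, *Cnfn*, *Rptn* and *Hrnr* had at most 8 counts in any E13.5 or E14.5 library, and the filter kept them through E15.5 and later libraries. For these genes a call of E15.5 over E14.5 was therefore favoured in advance. *Tgm1* (1.62 ± 0.70, edgeR, adjusted p = 0.103) and *Tgm3* (1.20 ± 0.84, adjusted p = 0.311) were not called. Without E15.5 replicate 3 there were 3 calls, *Sprr1a*, *Sprr3* and *Cnfn*, and without E14.5 replicate 1 there were 2, *Sprr3* and *Cnfn*. The calls of *Sprr3* and *Cnfn* held in each of the 14 other settings run, and that of *Cdsn* ended without E14.5 replicate 1 or E15.5 replicate 3. In 5 of the 20 tested members every E15.5 library was above every E14.5 library, beside 24% of all genes tested. Without a filter 6 of 47 members were called, beside 6.68% of all genes.

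E15.5 replicate 3 stood apart. Its members summed to 74.7 CPM, against 5.73 and 17.4 in the other E15.5 libraries. *Ivl*, *Sprr1b*, *Sprr4*, *Hrnr*, *Casp14*, *Dsc1* and *Lce6a* had a higher CPM in it than in any other of the 15 libraries. A list of 12 hair follicle and hard keratin genes summed to 41.0 CPM there, against 1.77 and 1.91 in the other E15.5 libraries and 0.315 to 6.57 over all other libraries, with *Krt71* at 15.7 CPM and *Krt25* at 9.98. *Krt71* had 0 counts in the other E15.5 libraries. The epidermal keratins *Krt1* and *Krt10* were at 170 and 95.8 CPM there, against at most 84.9 and 22.8 in any other library. Whether hair follicle or epidermal cells were present in that library, and their part in the members' levels, was not tested.

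From E15.5 to E16.5 1 of the 20 tested members, *Lce3a*, was called higher (edgeR, adjusted p = 0.0483, ratio 46 with an exact 95% counting interval of 7.62 to 1880). None was called lower, and of all genes tested 1.03% were called higher and 0.379% lower. In the settings that left out a library or used upper-quartile normalization the count was 0, as it was without a filter, beside 0.471% of all genes. Every E16.5 library was above every E15.5 library for 2 of the 20 tested members, *Lce3a* and *Cdsn*, beside 15.7% of all genes tested. From E16.5 to P0 0 members were called by edgeR, of 20 tested, and 0 by DESeq2, beside 0.19% of all genes called higher and 0.163% lower. An edgeR unadjusted p under 0.05 was reached by 5 members. The log2 fold change was above 0 for all 20, with a median of 1.98 against 0.00 over all genes tested. The members were measured in the same libraries, so they are not 20 separate observations. Of the P0 libraries, replicate 3 was highest for 14 of them, replicate 2 for 6 and replicate 1 for 0. The filter had kept several of these members through their levels at the later stages. Without a filter the calls were also 0, beside 0.0395% of all genes. Every P0 library was above every E16.5 library for 4 of the 20 tested members, beside 6.23% of all genes tested.

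Between E15.5 and P0, over which the palate matures, 12 of the 20 tested members were called higher and 0 lower. Of all genes tested, 12.2% were called higher and 10.8% lower. They were the 7 tested LCE genes, *Tgm1*, *Tgm3*, *Cnfn*, *Crct1* and *Cdsn*. *Sprr1a* and *Sprr3* were not among the 12. The filter had kept the 7 LCE genes through their E16.5 and P0 levels. For *Tgm3* the log2 fold change was 4.38 ± 0.91 (edgeR, adjusted p = 0.00717), for *Tgm1* 2.25 ± 0.70 (adjusted p = 0.0374), for *Cnfn* 2.96 ± 0.97 (adjusted p = 0.0442) and for *Cdsn* 2.36 ± 0.50 (adjusted p = 0.00794). Leaving out E15.5 replicate 2 lowered the count to 4, leaving out E15.5 replicate 1 to 6 and leaving out P0 replicate 3 to 7. Of the LCE genes, *Lce3a* and *Lce3c* kept their call without any 1 library. The calls of *Lce1a1* and *Lce1d* ended without any of the 6 libraries but P0 replicate 2, that of *Lce3e* without any 1 of the E15.5 libraries, that of *Lce3f* without E15.5 replicate 1 or 2 or P0 replicate 1 or 3, and that of *Lce3b* without E15.5 replicate 2 or 3. *Tgm1* and *Cnfn* were no longer called without E15.5 replicate 1 or 2 or without P0 replicate 2 or 3, and *Crct1* without E15.5 replicate 2, while *Tgm3* and *Cdsn* kept their calls without any 1 library. Without E15.5 replicate 3, 8 of the 12 calls remained and *Rptn* (6.86) and *Lor* (3.25) passed as well. The stages did not overlap for 10 of the 20 tested members, beside 19.4% of all genes tested. Without any filter on low counts 17 of 47 members were called, 12 of them LCE genes, beside 4.91% of all genes.

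Over the whole span from E13.5 to P0, 18 of the 20 tested members were called higher and 0 lower. Of all genes tested, 29.8% were called higher and 26.8% lower. Every P0 library lay above every E13.5 library for 18 of the 20 as well, beside 30.2%. Among those called were the 7 tested LCE genes, which the filter had kept through their later levels. It had also kept *Sprr1b*, *Sprr3*, *Rptn*, *Cnfn*, *Crct1* and *Cdsn* through later stages, as they had at most 8 counts in any E13.5 library. A call of P0 over E13.5 was therefore favoured in advance for all of these genes. The tested members outside the calls were *Hrnr* and *Dsc1*. Without the filter 30 of 47 members were called higher, beside 17.1% of all genes: 16 LCE genes, 5 SPRR genes, 3 enzymes, *Lor*, *Flg2*, *Rptn*, *Cnfn*, *Crct1* and *Cdsn*.

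SPRR and LCE sums did not order the libraries alike. In E16.5 replicate 1 the SPRR sum was 19.7 CPM and the LCE sum 0.129. In E16.5 replicates 2 and 3 the SPRR sums were 5.31 and 3.03 and the LCE sums 3.38 and 2.5. At P0 the SPRR sums were 6.55, 56.0 and 25.4 in replicates 1 to 3, against LCE sums of 6.32, 3.41 and 21.7. The ratio of SPRR to LCE was thus 152, 1.57 and 1.22 at E16.5 and 1.04, 16.4 and 1.17 at P0.

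E16.5 replicate 1 and P0 replicate 2, highest in SPRR for their stages, were also highest in *Tgm3* and lowest in *Rptn*, *Lor*, the LCE sum and *Krt1*, though not in every LCE gene. *Krt1*, the partner keratin of epidermis, was at 2.44, 10.5 and 30.1 CPM at E16.5 and 8.43, 3.26 and 84.9 at P0. The partner keratins of soft mucosa did not order the libraries alike. *Krt4* was at 296, 150 and 86.3 CPM at E16.5 and 129, 892 and 867 at P0, while *Krt13* was at 305, 382 and 483 CPM and at 269, 1030 and 1870. The summed level of 8 periderm and simple epithelium genes was 875, 432 and 440 CPM at E16.5 and 600, 1220 and 660 at P0, highest in E16.5 replicate 1 and P0 replicate 2. E16.5 replicate 1 and P0 replicate 2 were also highest in skeletal muscle genes, whose 7-gene sum was 42600, 19800 and 14100 CPM at E16.5 and 32600, 40300 and 6760 at P0. The part of these other tissues in the SPRR and LCE sums was not tested.

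**Figure D4:**
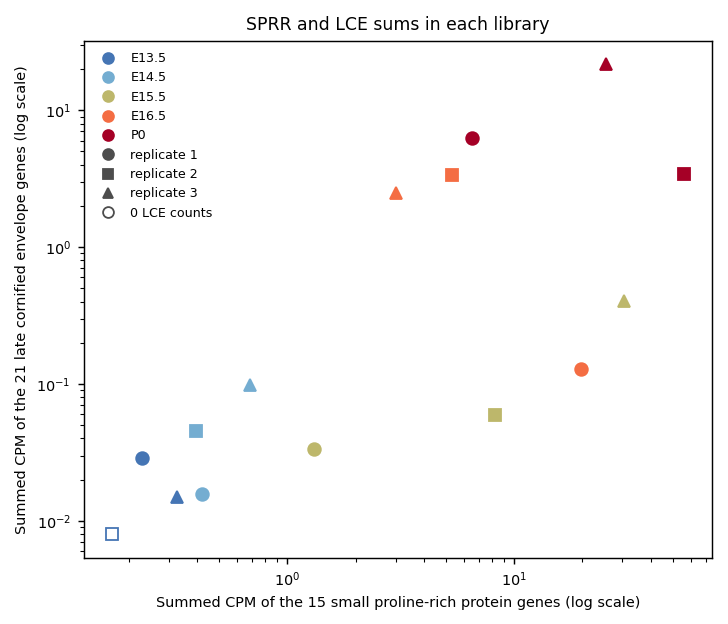
Summed CPM of the 15 SPRR genes (x, log axis) against the 21 LCE genes (y, log axis), 1 point per library, coloured by stage with marker shapes for replicates, and an open symbol for 0 LCE counts. E16.5 replicate 1, at 19.7 and 0.129 CPM, has an LCE sum within the 0.0337 to 0.405 CPM of the E15.5 libraries, under those of the other E16.5 libraries.

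Because these are bulk samples, fewer keratinocytes and less RNA per keratinocyte cannot be told apart. Set against the summed level of the 11 basal epithelial genes of the same library, the members came in stage order to 0.603% ± 0.149, 0.951% ± 0.0655, 1.85% ± 1.47, 2.62% ± 1.76 and 5.5% ± 2.15 (SD, n = 3 each). The E13.5 values were 0.670%, 0.707% and 0.432%, and those of P0 3.42%, 7.72% and 5.35%. P0 lay wholly above E13.5 and E14.5, overlapped E15.5 and E16.5, and E16.5 ran from 1.11% to 4.55%. The members' sum therefore differed more between E13.5 and P0 than the basal sum did: mean sums were 2.86 and 145 CPM for the members and 508 and 2500 CPM for the basal genes.

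**Figure D5:**
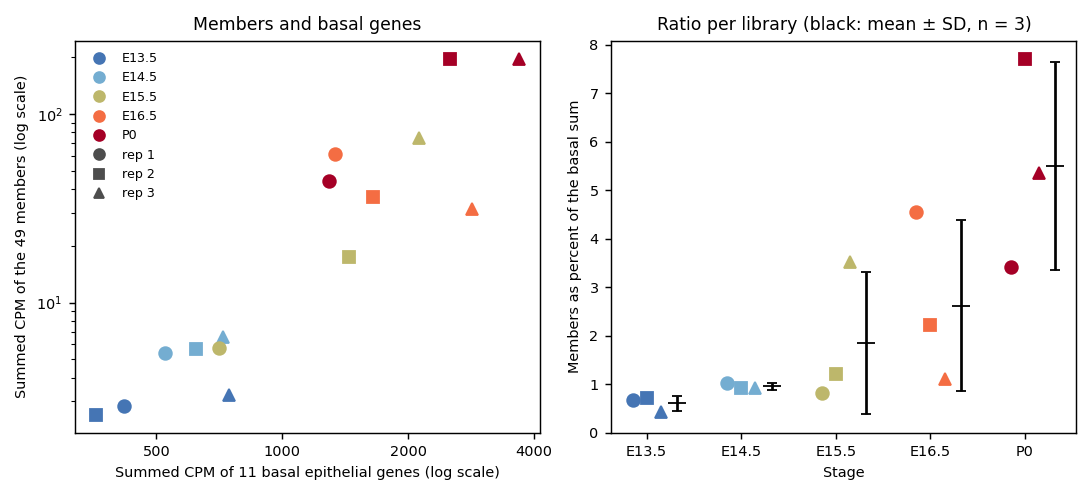
Left, summed CPM of the 49 members against that of 11 basal epithelial genes, 1 point per library on log axes; right, the members as percent of the basal sum by stage, with black bars for mean ± SD (n = 3). The mean ratio is 0.603% at E13.5 and 5.5% at P0.

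The rest of the keratinocyte programme was read from lists of genes that are not members. From E13.5 to P0, where 29.8% of all genes were called higher and 26.8% lower, edgeR called all 11 tested genes of the list of other envelope precursors higher (of 16 listed, median log2 fold change 4.24 against 0.03 over all tested genes). Among them *Dmkn*, dermokine, went from 0.247 ± 0.160 to 70.8 ± 22.5 CPM (SD, n = 3), and *Kprp* from 0 counts to 0.502 ± 0.473 CPM. Suprabasal keratins were higher for 9 of 11 tested, led by *Krt13* (11.31 ± 0.98, adjusted p = 5.01e-06) and *Krt4* (10.17 ± 1.16, adjusted p = 2.44e-05). Desquamation proteases and their inhibitors were higher for 9 of 11, with *Serpinb12* at 8.42 ± 1.23 (adjusted p = 0.000125) and *Klk14* at 5.35 ± 1.18 (adjusted p = 0.00208).

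Lipid envelope genes, which build the ceramide coat bound to the shell, were higher for 8 of 12 and lower for 1. *Alox12b*, a lipoxygenase of that coat, went from 0.206 ± 0.0624 to 5.31 ± 3.24 CPM (edgeR, adjusted p = 0.000192), and the gene that fell was *Ugcg*, glucosylceramide synthase (-0.85 ± 0.16, adjusted p = 0.000917). Regulators of cornification were higher for 10 of 16, led by *Cebpb* (3.73 ± 0.48, adjusted p = 5.53e-05) and *Hopx* (3.66 ± 0.58, adjusted p = 0.000234). Basal epithelial genes were higher for 9 of 11, with *Krt15* at 4.03 ± 0.58 (adjusted p = 0.000119), *Krt5* at 3.10 ± 0.84 (adjusted p = 0.00748) and *Krt14* at 2.18 ± 0.75 (adjusted p = 0.0247). A joint list covered simple epithelium and periderm, the flat transient layer over the shelves. It was higher for 5 of 8, led by *Krt19* (4.23 ± 0.71, adjusted p = 0.00032), and lower for 1, *Cldn6* (-2.79 ± 0.60, adjusted p = 0.00187). As the list holds genes of both, a change in periderm alone cannot be read from it.

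At the earlier step from E14.5 to E15.5, edgeR called 12.7% of all genes higher and 13.4% lower. Called higher were 7 of 11 suprabasal keratins, 4 of 11 other envelope precursors and 5 of 11 desquamation genes. So were 2 of 12 lipid envelope genes, with 1 lower, and 3 of 11 basal genes. The last were 3 of 8 periderm and simple epithelium genes and 1 of 16 regulators. The regulator was *Klf4*, at 37.2 ± 12.4 CPM at E14.5 and 62.5 ± 5.87 at E15.5 (0.75 ± 0.25, adjusted p = 0.0461). *Krt13* took its step here, from 0.680 ± 0.275 to 178 ± 140 CPM (8.03 ± 0.87, adjusted p = 0.000254), at the same interval as *Sprr1a* and *Sprr3*.

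Lists of other tissues also moved between E13.5 and P0. Airway genes were higher for 10 of 10, muscle genes for 6 of 7, enamel genes for 4 of 5 and hair follicle genes for 4 of 9, with mesenchymal genes higher for 2 and lower for 5 of 8, and 0 of 6 erythroid genes called. From E14.5 to E15.5 airway genes were higher for 10 of 10, muscle genes for 6 of 7 and hair follicle genes for 4 of 9. Mesenchymal genes were higher for 1 of 8, enamel genes higher for 1 and lower for 1 of 5, and erythroid genes for 0 of 6. Of all genes tested, 12.7% were higher and 13.4% lower at that step. The part of other tissues in the members' levels was not tested at either interval.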

How the data were processed

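RNA of 15 palate libraries was measured. The deposited table holds counts per gene; its header gives the authors' command, featureCounts 2.0.1 on GENCODE M18, for read pairs on the reverse strand, with no option for reads that map to several places. The submitters' processing notes list cutadapt 3.4, FastQC 0.11.9, Bowtie2, HISAT2 2.2.1, SAMtools 1.12, Subread 2.0.1 and mm10. Symbols came from GENCODE M21, where all 49 members had the table's position.

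Genes were filtered by edgeR's filterByExpr (minimum count 10, 22151 genes kept), normalized by TMM and modelled by stage over all 15 libraries (edgeR 4.0.16, R 4.3.3). Contrasts used the quasi-likelihood F test, Benjamini-Hochberg adjusted over all tested genes at 0.05. Errors given after log2 fold changes are approximate standard errors. Each is the absolute log2 fold change divided by the square root of its F statistic. Fitted fold changes used a prior count of 0.125. A fold against a stage at 0 used 3 counts per library; with 1 to 3 counts the ratio is of pooled counts per pooled total, with an exact 95% interval for counting error. The procedure was tested on simulated data. DESeq2 1.42.0 was an alternative, beside other normalizations, filters, a replicate block and leaving out libraries.

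Members and lists were chosen with earlier results of these data known. Named were all members outside the SPRR and LCE families, the tested SPRR and LCE genes, and, of the other epithelial lists, genes drawn from the 2 with the largest called change, with *Krt5* and *Krt14*. *Ugcg*, and library values of marker keratins and of untested members, were given after their values were seen. Protein composition, which had been planned, was not analysed here. Promoters are from RefSeq.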

Additional observations from a re-analysis of the deposited data

How the results depend on the processing

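All calls below are of members, by edgeR unless stated. For E16.5 against E15.5 the count of 1 became 0 with upper-quartile normalization, with no filter, with a mean of at least 1 CPM, with only the 6 libraries of the contrast and without any single library (0 to 0), and 2 with DESeq2. With no filter 26 members changed across the stages and 30 were called for P0 against E13.5; with a mean of at least 1 CPM, which leaves 9 members to test, 9 changed across the stages and 5 and 9 were called for P0 against E15.5 and P0 against E13.5. Only the 6 libraries gave 4 for P0 against E15.5. Leaving out a library gave 2 to 9 for E15.5 against E14.5, 4 to 11 for P0 against E15.5, 16 to 22 for P0 against E13.5 and 16 to 22 across the stages. The cause of these shifts beyond fewer or more members tested was not tested.

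After thinning to the smallest total, members above 3 counts in every library were 2, 4 and 6 at E13.5, E14.5 and E15.5. Without thinning, members above 3 counts in at least 1 library were 10, 20, 25 and 37 at E13.5, E15.5, E16.5 and P0. At E16.5, leaving out a library gave 10 to 21. Log2 fold changes that turned sign when 1 library was left out were those of *Lor* (-1.15 without E15.5 replicate 3, -0.13 without E14.5 replicate 3, up to 0.50), *Crct1* (-2.04 to 1.44) and *Hrnr* (-2.38 to 9.31) for E15.5 against E14.5, and of *Hrnr* (-3.69 to 7.10) and *Dsc1* (-4.08 to 1.89) for P0 against E15.5, the turns of these last 4 being without E15.5 replicate 3. With the replicate number as a block, 15 members changed across the stages, 5 were called for E15.5 against E14.5, 11 and 18 for P0 against E15.5 and E13.5, and *Lor* was at -0.41 for E15.5 against E14.5. The numbers were not taken to pair the samples, since same-numbered deviations did not all correlate over 0.1: they ran from -0.30 to 0.55, with 6 of 18 over 0.1 and 7 best with their own number. Replicate 3 was best with its own number in 6 of 6 contrasts, and the basal sum was highest in replicate 3 at each of the 5 stages (746, 720, 2120, 2840 and 3680 CPM). A prior count of 0.5, added after the data were seen, turned no sign. At P0 a count of 0 allows up to 0.131 CPM, so low members could not be called absent.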
